A study of Caenorhabditis elegans with 2 samples.

Results

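Peaks of the tagged worm transcription factor SPTF-2 that lie at divergent protein-coding promoters numbered 127, among 3768 pooled peaks with a signal value of 55 or more and 30000 pooled peaks in all. A divergent promoter here is a place where protein-coding genes start on opposite strands close to the same peak. The 127 peaks were selected on the pooled signal value and on annotation: starts of at least 2 genes on opposite strands had to lie within 500 bp of the summit, and no tRNA, snoRNA or snRNA start could lie that close. The selected peaks touched the starts of 253 protein-coding genes. Of the other peaks past the same signal value, 1037 had protein-coding starts within 500 bp without meeting the divergent rule and are called one-strand promoter peaks below, 459 lay beside a small RNA start, and 2145 had no protein-coding start that close. Each divergent peak is named by its minus-strand gene and then its plus-strand gene.

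The animals were whole young adults of strain OP769 at 64.5 hours, a mixed-sex population synchronized by bleaching and L1 starvation. The strain carries the unc-119(tm4063) mutation and the transgene wgls769, which holds an sptf-2::TY1::EGFP::3xFLAG fusion together with unc-119(+). Binding was read through the fusion with an anti-GFP antibody in 2 biological replicates of 1 group, with no second condition, and the labels do not say how the cultures were kept apart. The lists therefore describe a tagged transgene product averaged over all tissues of the animal, and peaks of an untagged strain were not analysed here.

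SPTF-2 belongs to the Sp family of zinc finger transcription factors, whose mammalian members bind GC-rich boxes and related CACC boxes in promoters of widely expressed genes. In divergent promoters a short stretch of DNA serves genes on both strands, so a peak there cannot be given to 1 of its genes. Most C. elegans messages are trimmed at the 5′ end by trans-splicing to a spliced leader, so an annotated start often marks the trans-splice site and the true start of transcription can lie upstream of it.

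The windows below show the sequence at such peaks, 201 bp around the summit on the plus strand of WBcel235, the assembly also called ce11, read from the RefSeq genome. All of them were taken from stretches that hold no annotated exon, which 47 of the 127 windows met. The first set shows the GC box GGGCGG, the Sp family's textbook site, with the box in capitals as it reads on the plus strand, at 3 of the peaks that held one and met the condition. They are aka-1/ubc-6 at II:7478919-7479119, rtfo-1/K09G1.1 at V:9582970-9583170 and vdac-1/R05G6.5 at IV:7508145-7508345. None of them was in the authors' optimal list of strongest pooled peaks, which held 3 other divergent peaks with a GC box. Only 21.1% of the 31-base words in the aka-1/ubc-6 window occur once in the genome. The rtfo-1/K09G1.1 peak ranked 8598 in replicate 1 and was absent from the replicate 2 list, and vdac-1/R05G6.5 ranked 2231 and 11158.
aka-1/ubc-6: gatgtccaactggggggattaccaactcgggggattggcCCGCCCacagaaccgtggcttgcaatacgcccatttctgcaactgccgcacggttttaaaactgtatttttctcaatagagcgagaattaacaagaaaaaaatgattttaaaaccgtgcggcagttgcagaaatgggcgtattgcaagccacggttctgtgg
rtfo-1/K09G1.1: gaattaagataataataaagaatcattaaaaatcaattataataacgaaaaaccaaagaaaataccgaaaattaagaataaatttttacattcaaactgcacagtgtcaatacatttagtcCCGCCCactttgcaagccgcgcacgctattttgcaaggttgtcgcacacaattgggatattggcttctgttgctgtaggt
vdac-1/R05G6.5: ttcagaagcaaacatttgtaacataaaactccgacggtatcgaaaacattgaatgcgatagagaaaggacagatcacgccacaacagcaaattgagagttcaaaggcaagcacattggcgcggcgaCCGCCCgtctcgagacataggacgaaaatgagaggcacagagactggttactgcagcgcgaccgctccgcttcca

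The second set shows peaks among the strongest that met the same condition, none of which holds a GC box. Capitals mark 4 hexamers picked after all hexamers in these windows had been counted. They are TCGCAA, the self-complementary word TTGCAA, the A-rich word AAATCG and the word ACCGTA, each on either strand. Every window shown holds ACCGTA, which was at only 23 of the 127 divergent peaks. Of the 19 divergent peaks in the authors' optimal list of strongest pooled peaks, 5 held it, so these windows are not typical of the strongest peaks. The peaks are rpl-15/K11H12.8 at IV:654806-655006, rpl-20/Y17G9B.5 at IV:4749973-4750173, trap-2/ile-2 at X:768121-768321 and rps-23/dpm-3 at IV:12391270-12391470.
rpl-15/K11H12.8: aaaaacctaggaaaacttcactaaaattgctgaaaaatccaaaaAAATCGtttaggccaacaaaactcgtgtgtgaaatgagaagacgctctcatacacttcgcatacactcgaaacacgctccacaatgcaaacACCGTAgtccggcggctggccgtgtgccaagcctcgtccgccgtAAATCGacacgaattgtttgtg
rpl-20/Y17G9B.5: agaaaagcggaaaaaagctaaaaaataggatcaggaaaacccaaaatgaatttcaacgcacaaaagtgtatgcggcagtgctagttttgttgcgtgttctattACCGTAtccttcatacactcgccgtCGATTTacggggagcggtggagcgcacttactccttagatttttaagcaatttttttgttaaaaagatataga
trap-2/ile-2: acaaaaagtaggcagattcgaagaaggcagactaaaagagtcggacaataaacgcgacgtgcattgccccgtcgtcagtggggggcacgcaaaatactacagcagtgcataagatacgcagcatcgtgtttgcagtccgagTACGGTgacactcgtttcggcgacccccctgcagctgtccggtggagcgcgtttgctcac
rps-23/dpm-3: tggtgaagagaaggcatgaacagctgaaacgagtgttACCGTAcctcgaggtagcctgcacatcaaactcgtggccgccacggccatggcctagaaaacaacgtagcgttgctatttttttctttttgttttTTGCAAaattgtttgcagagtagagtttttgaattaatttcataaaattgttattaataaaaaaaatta

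Among peaks at protein-coding promoters, the divergent share was larger in the stronger peaks. Divergent peaks made up 19 of the 117 coding promoter peaks in the authors' optimal list (16.2%, exact 95% interval 10.1 to 24.2), which holds the 407 strongest pooled peaks and ends at a signal value of 90.4. They made up 127 of 1164 (10.9%, 9.18 to 12.8) at a signal of 55 or more, and 424 of 7140 (5.94%, 5.401 to 6.51) under 55. For scale, 4.33% of all genome positions near protein-coding starts had starts of both strands within 500 bp. The share went up at each step of signal, with 5.25% under 40, 7.28% from 40 to 55, 9.09% from 55 to 65, 10.9% from 65 to 75, 13.7% from 75 to 90.4 and 16.2% above that. Intervals here and below treat peaks as independent, cover counting error only and were not turned into tests, because the signal value also chose the peaks.

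**Figure D1:**
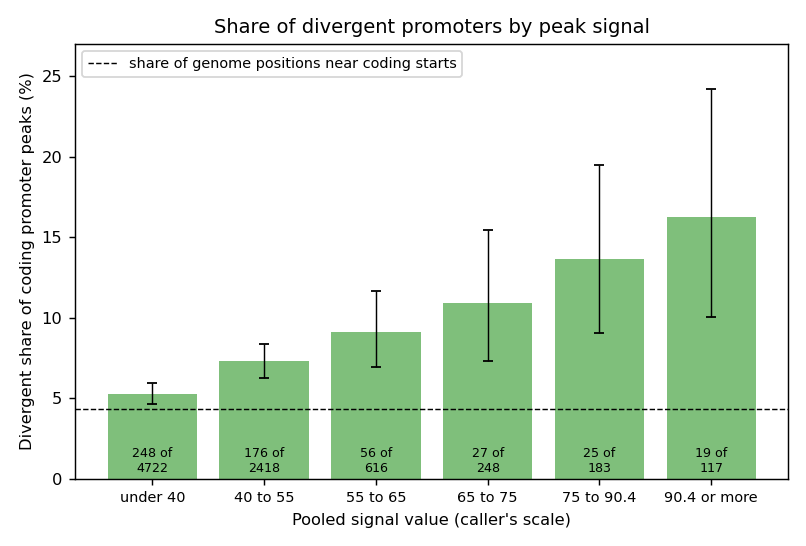
Share of divergent peaks among pooled peaks at protein-coding promoters, in percent, by pooled signal value on the caller's scale; bars carry exact 95% intervals and the counts behind them, and the dashed line is the divergent share of genome positions near coding starts. The share is 5.25% in the weakest bin and 16.2% in the strongest, and every bin lies above the 4.33% line.

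The strongest divergent peak lay between rpl-15, which encodes a protein of the large ribosomal subunit, and the uncharacterized gene K11H12.8, at IV:654718-655093. Its signal values were 116 in replicate 1 and 79.8 in replicate 2, and it ranked 22 and 31 in those lists and 18 in the pooled list, where its signal was 208. The next peak, at IV:390276-390651, covered the starts of ears-2, a glutamyl-tRNA synthetase gene, and uncp-18, which lie 92 bp apart. It had signal values of 108 in replicate 1 and 74.9 in replicate 2, and ranks of 26 and 47. These were the only divergent peaks among the 100 strongest of both replicate lists.

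In the next places were rpl-20/Y17G9B.5, at ranks 110 in replicate 1 and 50 in replicate 2, and trap-2/ile-2, at ranks 354 and 119. Here trap-2 encodes a subunit of the translocon-associated complex of the endoplasmic reticulum (ER) and ile-2 a cargo lectin of the early secretory pathway. Next came dad-1/tre-1, at ranks 123 and 264, with dad-1 encoding a subunit of the enzyme that glycosylates proteins in the ER and tre-1 a trehalase, and F09E5.11/bmy-1, at ranks 258 and 113. All 4 were high in both libraries. Ranks rather than levels are compared between lists, since the caller's scale differs from list to list.

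The 20 strongest divergent peaks reached down to a pooled signal of 89.9, and 19 of them were in the optimal list. Beside those already named they included rps-23/dpm-3, rps-19/hsr-9 and rpl-12/lin-54 at ribosomal protein genes, and T10B5.4/cct-7 and cct-8/Y55F3AR.2 at subunits of the CCT chaperonin, which folds actin and tubulin. Other metabolic and regulatory genes there were hxk-2/cdk-9, at a hexokinase gene and the kinase of the elongation factor P-TEFb, R53.4/psf-1, at a subunit of the GINS replication complex, and ahsa-1/C01G10.7, at an activator of the chaperone HSP90. The remaining ones were rsr-1/sri-5, Y59E9AL.36/nbet-1, F40F11.3/mig-38, col-46/col-47, tbb-1/rib-2 at a beta-tubulin gene, and imp-2/enpl-1 at the ER form of HSP90. Of these 20 peaks, 17 were among the 3768 strongest of both replicate lists and 10 among the 500 strongest of both.

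Exceptions in the optimal list were 3 peaks that ranked high in replicate 1 alone. tbb-1/rib-2 ranked 127 in replicate 1 and 12494 in replicate 2, with signal values of 70.8 and 21.9. Y59E9AL.36/nbet-1, beside the gene of a secretory SNARE protein, ranked 146 and 7873, and F40F11.3/mig-38 ranked 184 and 7739. A peak outside the optimal list leaned the other way: mat-1/prp-31, between an anaphase-promoting complex gene and a splicing factor gene, ranked 5401 in replicate 1 and 93 in replicate 2.

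Across the 127 peaks, 40 had their summit in one of the 3768 strongest peaks of both replicate lists (31.5%, 23.5 to 40.3). The same held for 25.2% of one-strand promoter peaks and for 26% of all pooled peaks with a signal of 55 or more, and both values lie inside that interval. A further 46 divergent peaks reached that rank in replicate 1 alone (36.2%), 24 in replicate 2 alone (18.9%) and 17 in neither (13.4%). Over all pooled peaks with a signal of 55 or more these shares were 33.7%, 26.5% and 13.8%. In the optimal list were 19 of the 127 (14.96%, 9.25 to 22.4), beside 98 of 1037 one-strand promoter peaks (9.45%) and 10.8% of all peaks with a signal of 55 or more. The pooled list was derived from the alignments of both replicates, so its signal is not independent of theirs, and these counts describe the peaks without testing them.

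The median rank of the divergent peaks was 1604 in replicate 1 (quartiles 696 and 4835, 125 peaks) and 3373 in replicate 2 (quartiles 934.5 and 8443.5, 119 peaks). For one-strand promoter peaks the medians were 2465 in replicate 1 and 3140.5 in replicate 2, and for all peaks with a signal of 55 or more they were 2508 and 2962.5. Of the 117 divergent peaks present in both full lists of 30000, 69 ranked higher in replicate 1 (59.0%, 49.5 to 68.0), against 54.6% of one-strand promoter peaks and 52.1% of all, and the interval holds both of these shares.

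Without a counterpart in the full replicate 2 list were 8 divergent peaks (6.30%), and 2 (1.57%) had none in the full replicate 1 list. Of all pooled peaks with a signal of 55 or more, 7.09% were in the replicate 1 list alone and 3.72% in the replicate 2 list alone. The strongest of the 8 was pdi-1/C14B1.2, at a protein disulfide isomerase gene, with rank 363 in replicate 1, followed by eef-1B.1/aco-2 at rank 419, at a translation elongation factor gene and the aconitase gene. The others were wht-7/Y42G9A.1 at rank 6382, rtfo-1/K09G1.1 at rank 8598, C01G10.10/C01G10.9 at rank 746, acdh-13/mesp-1 at rank 488, H12C20.7/nhr-68 at rank 437 and cdk-4/F18H3.1 at rank 1532, so the 8 lay between rank 363 and rank 8598 in replicate 1. The 2 seen in replicate 2 alone were mcrs-1/atp-1, at rank 702 and beside a subunit gene of the mitochondrial ATP synthase, and ani-2/clec-88, at rank 674 and beside an anillin gene. None of these peaks was in the optimal list.

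**Figure D2:**
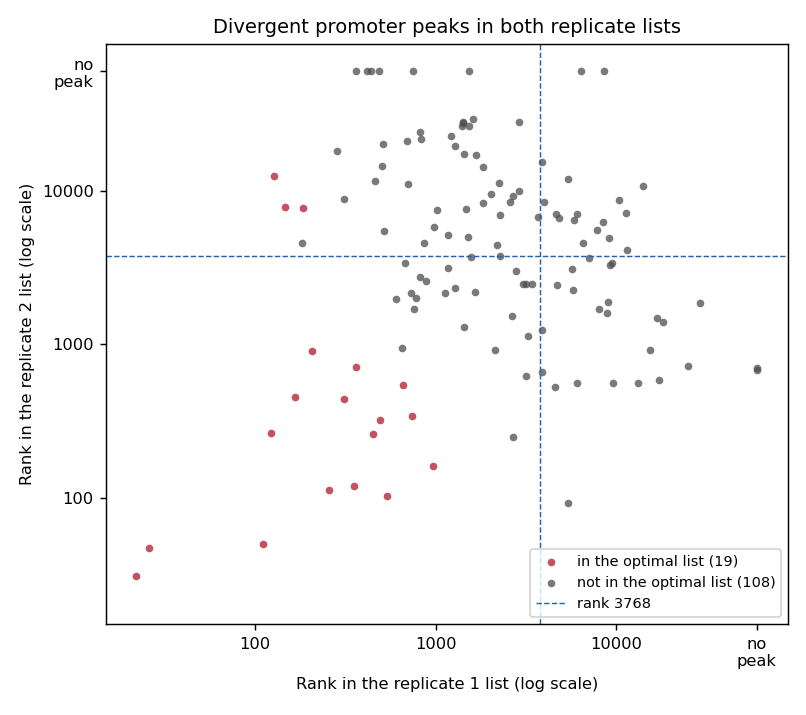
Rank of each of the 127 divergent peaks in the replicate 1 list (x axis) and the replicate 2 list (y axis), both on log scales, with a margin for peaks absent from a list; red points are in the optimal list and dashed lines mark rank 3768. Of the 19 red points, 16 lie under both lines and 3 have replicate 2 ranks of 7739 to 12494, while the 108 grey points lie on every side of the lines.

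Just inside the signal limit lay cdk-4/F18H3.1 at 55.8, F09G8.7/crn-7 at 55.55 and mrps-6/rpn-8 at 55.1. Divergent peaks just outside it were cest-12/lonp-2 at 54.9, W05F2.3/W05F2.6 at 54.9 and rpl-9/lpd-7 at 54.8, so the limit cuts through a continuous range. The median signal of the selected peaks was 67.4, against a median of 63.9 for one-strand promoter peaks.

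The summit lay between head-to-head starts at 89 of the 127 (70.1%, 61.3 to 77.9), and in 44 of those 89 it lay in the central one of 3 equal parts of the space. The rule fixes much of this share. Of the positions within 500 bp of both starts at the 125 head-to-head peaks, 64.2% lie between them when averaged over peaks, inside that interval. Pooled over all these positions the share is 54.4%, under that interval. At 36 peaks the starts were head to head but the summit fell inside one of the genes, and at 2 peaks, col-46/col-47 and F30F8.5/taf-5, the genes overlapped at their starts. By annotation 83 summits were intergenic, 17 lay in coding exons, 16 in untranslated exons and 11 in introns. All 127 peaks had the same deposited width of 376 bp, so the summit gives the place of a peak but its width says nothing of the extent of binding.

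Summits of divergent peaks were nearer to a start than those of one-strand promoter peaks, with a median of 113 bp against 206 bp. Within 100 bp of a start were 57 of 127 divergent summits (44.9%, 36.1 to 54.0) and 269 of 1037 one-strand summits (25.9%, 23.3 to 28.7). A second gene on the other strand adds a start that can be near, and the rule requires it, so the nearness follows in part from how the peaks were chosen.

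Starts of the 125 head-to-head peaks were 20 to 914 bp apart, with a median of 393 bp. The closest were Y59E9AL.36/nbet-1, 20 bp apart with the summit in an intron, and the widest were C49C8.5/C49C8.1. Of 1728 head-to-head gene pairs in the genome with starts up to 1000 bp apart and no small RNA start near their midpoint, 118 had a divergent peak (6.83%). By distance between starts the share was 6.05% at 1 to 200 bp (15 of 248), 10.02% at 201 to 400 bp (47 of 469), 8.33% at 401 to 600 bp (33 of 396), 4.93% at 601 to 800 bp (17 of 345) and 2.22% at 801 to 1000 bp (6 of 270).

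The rule itself shrinks the room for a peak as the starts move apart, because the summit must stay within 500 bp of both. Pairs with a divergent peak were therefore also counted per 100 kb of positions that met this condition. There were 6.97 at 1 to 200 bp, 14.2 at 201 to 400 bp and 16.7 at 401 to 600 bp. At 601 to 800 bp there were 16.0, and at 801 to 1000 bp 21.2, the last from only 6 pairs over 28325 positions. On that scale the value was lowest for the closest pairs, and the low share of the widest pairs was no longer seen.

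**Figure D3:**
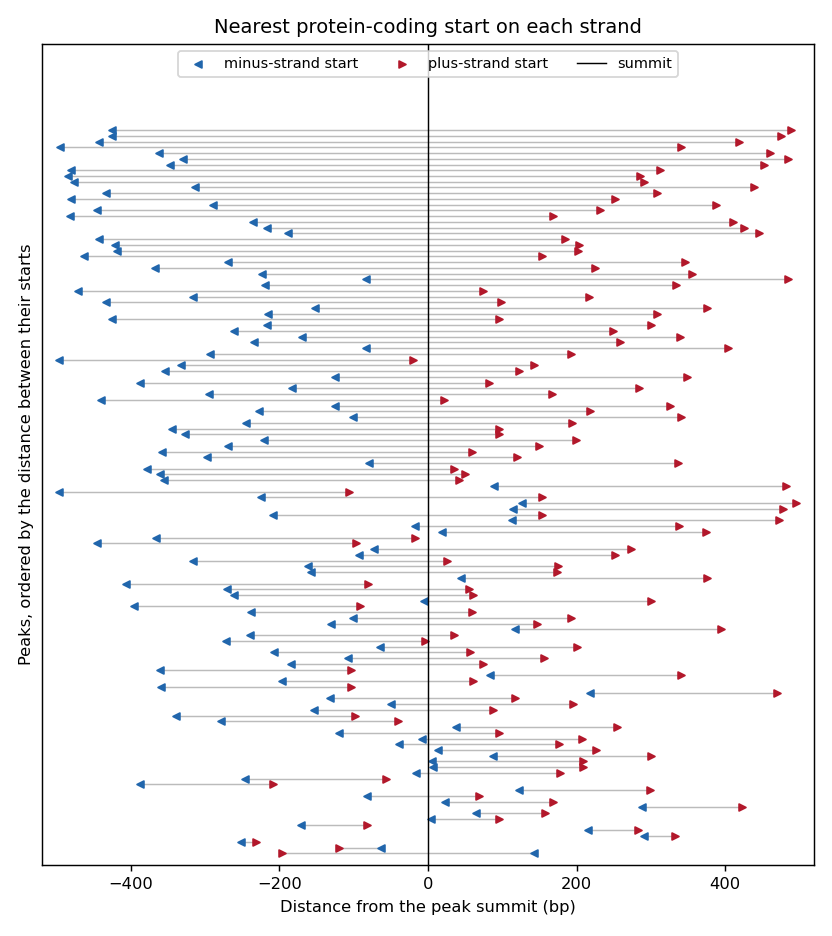
Position of the nearest minus-strand start (blue) and plus-strand start (red) of each of the 127 divergent peaks relative to the summit at 0, in bp, with peaks stacked by the distance between their starts, the widest at the top. The summit line runs between both starts for 89 peaks, and the 2 peaks with overlapping genes are at the bottom.

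Among lists of 30 or more genes, the shares at divergent peaks were largest for proteasome subunits, cytosolic ribosomal proteins, chaperones, nuclear pore genes, and chromatin and histone genes. All gene lists were read against 1.27%, the share of 19973 protein-coding genes with a start at a divergent peak. Several were also read against 6.83%, the same share among 3456 genes of head-to-head pairs. Cytosolic ribosomal protein genes had 9 of 81 (11.1%, 5.21 to 20.05), and among those in head-to-head pairs 7 of 40 (17.5%). One-strand promoter peaks, 1037 in number against 127, held 39 genes of that list (48.1%) and 5.13% of all protein-coding genes. They also held 17.6% of chaperone genes, 12.1% of proteasome subunit genes, 9.30% of nuclear pore genes and 4.35% of chromatin and histone genes. Most of the lists with the largest shares at divergent peaks were thus also above the share of all genes at one-strand promoter peaks.

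The 9 ribosomal protein genes were rpl-4, rpl-12, rpl-15, rpl-20, rps-1, rps-3, rps-19, rps-23 and rps-29, each with a peak of its own. In the optimal list and in the 3768 strongest of both replicates were 5 of the 9 peaks. The other 4 were uneven: ifet-1/rps-1 ranked 9561 in replicate 1 and 561 in replicate 2, sna-3/rps-3 ranked 15363 and 920, and snt-2/rps-29 ranked 24900 and 722, while rpl-4/B0041.8 ranked 3871 and 15453. Of the 9 peaks, 6 ranked higher in replicate 2 and 3 in replicate 1.

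Mitochondrial ribosomal protein genes had 4 of 66 at divergent peaks (6.06%, 1.68 to 14.8), namely mrpl-9, mrpl-17, mrpl-39 and mrps-6, and 4 of their 23 in head-to-head pairs. No gene of that list had a one-strand promoter peak, where 5.13% of all protein-coding genes had one. The mrpl-9/kin-3 peak was the strongest of them, with a pooled signal of 77.5 and ranks of 679 in replicate 1 and 3373 in replicate 2. Respiration and import genes had 5 of 84 (5.95%, 1.96 to 13.3), and 5 of their 38 in head-to-head pairs (13.2%). They were atp-1 and atp-3 of the ATP synthase, ndua-13 of complex I, mev-1 of complex II and ucr-1 of complex III. None of these 5 peaks was in the 3768 strongest of both replicates, and 4 reached that rank in replicate 1 alone.

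Chaperone genes had 7 of 68 (10.3%, 4.24 to 20.1) and 7 of their 31 in head-to-head pairs (22.6%). CCT subunits account for 5 of the 7 (cct-1, cct-5, cct-6, cct-7 and cct-8), and the others were dnj-19, a DnaJ co-chaperone, and hip-1, a co-chaperone of HSP70. The cct-7 and cct-8 peaks were in the optimal list, with ranks of 738 in replicate 1 and 342 in replicate 2 for T10B5.4/cct-7, and 362 and 715 for cct-8/Y55F3AR.2. The weakest of the CCT peaks, cct-5/F25F2.1, ranked 821 and 24052.

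Proteasome subunit genes had 5 of 33 (15.2%, 5.11 to 31.9), and 4 of their 20 in head-to-head pairs (20%). The 5 were pas-4 of the core particle and rpn-7, rpn-8, rpn-9 and rpt-4 of the regulatory particle. Of these peaks only pas-4/rpb-3 was in the 3768 strongest of both replicates, at ranks 1443 and 1289, and the other 4 reached that rank in replicate 1 alone. The plus-strand gene of that peak, rpb-3, encodes a subunit of RNA polymerase II. Nuclear pore and transport genes had 4 of 43 (9.30%, 2.59 to 22.1), and 4 of their 22 in head-to-head pairs (18.2%). They were npp-14, npp-16, ran-5 and the importin gene ima-1.

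Chromatin and histone genes had 12 of 138 (8.70%, 4.57 to 14.7), and 12 of their 77 in head-to-head pairs (15.6%). These 12 genes lay at 9 peaks, and the interval treats genes that share a peak as independent. Histone genes made up 8 of the 12, in the pairs his-67/his-68, his-2/his-1, his-60/his-59 and his-63/his-64, and the others were lin-35, the worm Rb homologue, lin-53, a histone-binding protein gene, the demethylase family gene jmjd-4 and the methyltransferase gene set-16. The his-60/his-59 pair had 2 peaks 445 bp apart, one over each gene. At all of these histone pairs the summits lay in a coding exon, 41 to 126 bp inside a gene, and none lay between the starts. Histone genes exist in near-identical copies: only 18.1% of the 31-base words at the his-63/his-64 peak, 53.8% at his-2/his-1 and 56.1% and 59.1% at the his-60/his-59 peaks occur once in the genome, so the placing of reads among these copies is uncertain.

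Other lists had fewer genes at divergent peaks. Splicing factors had 2 of 55, general transcription genes 2 of 74, vesicle traffic genes 3 of 100, ubiquitin conjugation genes 2 of 69, replication and cell cycle genes 3 of 55, translation factors 1 of 43, aminoacyl tRNA synthetases 1 of 32 and actin and tubulin genes 1 of 18. They were snrp-40.1 and prp-31, rpb-3 and taf-5, copz-1, vps-51 and sec-61.B, ubc-6 and uba-5, cdk-4, orc-1 and cdk-9, eef-1B.1, ears-2 and tbb-1, of which cdk-9 is a transcription kinase despite its list. Intervals of all these shares included 1.27%. mRNA 3′ end and Integrator genes had 0 of 24, which allows up to 14.2%, and the Sp and Krüppel-like factor genes 0 of 6.

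Among large gene families, nuclear hormone receptor genes had 3 of 269 (1.12%) over the whole list and 3 of their 18 in head-to-head pairs (16.7%). Cuticle collagens had 2 of 173 (1.16%) and chemoreceptor genes 3 of 1310 (0.229%, 0.0473 to 0.668). The collagen peak was col-46/col-47, whose genes overlap, with ranks of 660 in replicate 1 and 546 in replicate 2. Among the chemoreceptors sri-5 shared its peak with rsr-1 and srz-85 with B0205.14, so those peaks cannot be given to the receptor gene. In head-to-head pairs were 127 of the 1310 chemoreceptor genes, and 2 of those 127 had a divergent peak.

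Over the 20 lists, 69 of the 253 genes at divergent peaks were in a list (27.3%), against 15.8% of genes at one-strand promoter peaks, 16.6% of genes in head-to-head pairs and 13.7% of all protein-coding genes. The lists were chosen with earlier results of these data known, so these shares describe the peaks and do not test them. A listed gene stood on at least one strand at 60 of the 127 peaks. The same list stood on both strands at 6 peaks, of which 5 were at histone pairs and 1 at the collagen pair.

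**Figure D4:**
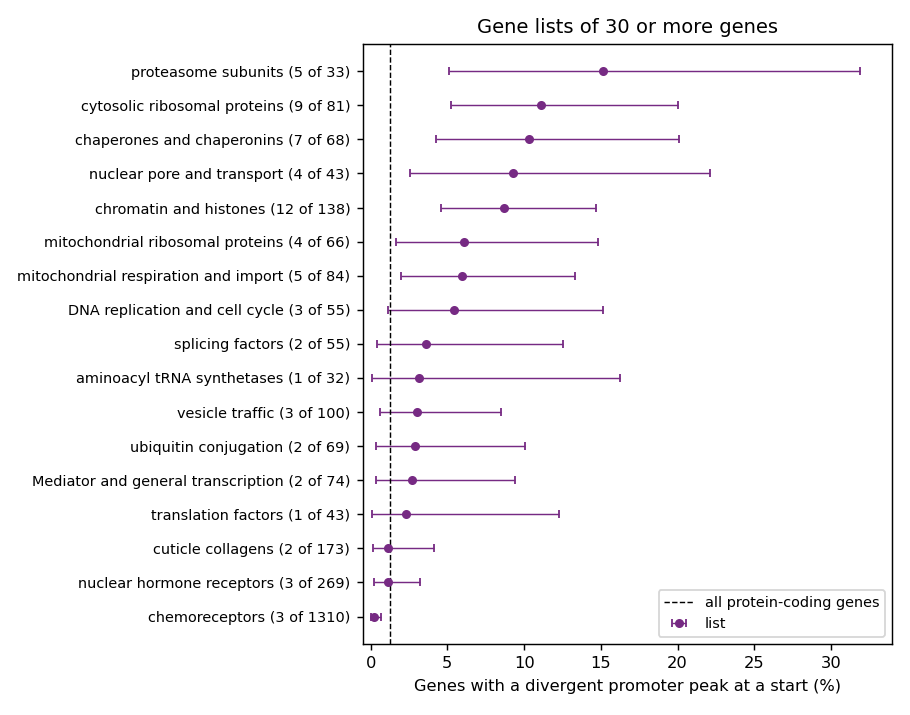
Percent of the genes of each list of 30 or more genes that had a start at a divergent peak, with exact 95% intervals and the counts in the labels; the dashed line is the 1.27% of all protein-coding genes. Proteasome subunits lie highest at 15.2% and chemoreceptors lowest at 0.229%, and the intervals of the 7 lists at the top lie above the line. The 6.83% of genes in head-to-head pairs is not drawn. The lists were chosen with earlier results of these data known.

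Searching 100 bp to either side of the summit on both strands, the GC box GGGCGG was found at 13 of the 127 divergent peaks (10.2%, 5.56 to 16.9). It was found at 8.68% of one-strand promoter peaks and 8.73% of all peaks with a signal of 55 or more, and at 5.24% of 1470 head-to-head pairs that had no peak of that strength, searched around the midpoint of their starts and called pairs without a strong peak below. All but the last of these shares are well inside the interval of the divergent peaks, and the last is just under its lower end. Windows 500 bp to either side of the same summits held the box in 7 of 254 (2.76%, 1.12 to 5.60). In the optimal list it was at 3 of 19 divergent peaks, and among those in the 3768 strongest of both replicates at 6 of 40.

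The 13 peaks held 14 boxes, 9 of them within 50 bp of the summit, with a median distance of 28 bp. Strongest by signal were dad-1/tre-1, with 2 boxes 31 bp and 28 bp from the summit, hxk-2/cdk-9, with a box 3 bp away, and R53.4/psf-1, with a box 11 bp away. The rest of the 10 strongest were imp-2/enpl-1, aka-1/ubc-6, mcrs-1/atp-1, ddx-15/ucr-1, his-60/his-59, jmjd-4/mev-1 and rtfo-1/K09G1.1. The longer form GGGCGGG, which contains the box, was at 5 of the 127 (3.94%) and at 2.51% of one-strand promoter peaks. At 114 of 127 divergent peaks no GC box was within 100 bp.

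The CACC box CACCC was at 14 of the 127 divergent peaks (11.0%, 6.16 to 17.8) and at 19.1% of one-strand promoter peaks, 21.5% of all peaks with a signal of 55 or more and 11.2% of pairs without a strong peak. Its share at divergent peaks was thus close to that of pairs without a strong peak, and its interval ended below the share at one-strand promoter peaks. GAGAGA, a repeat found in many open promoters, was at 18.1% of divergent peaks, 22.4% of one-strand promoter peaks and 13.2% of pairs without a strong peak. The TATA box TATAAA was at 13.4% of divergent peaks, 14.1% of one-strand promoter peaks and 28.6% of pairs without a strong peak. The splice acceptor TTTCAG was at 33.9%, 29.1% and 31.3% in the same order. Control words with no known role gave 7.09% at divergent peaks against 6.85% at one-strand promoter peaks for ACTACA, and 7.09% against 4.92% for GTCATG.

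Base composition differed between these sets. The 201 bp windows had a median GC content of 40.8% at divergent peaks, 43.8% at one-strand promoter peaks and 33.3% at pairs without a strong peak. Its part in the motif shares was not tested.

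**Figure D5:**
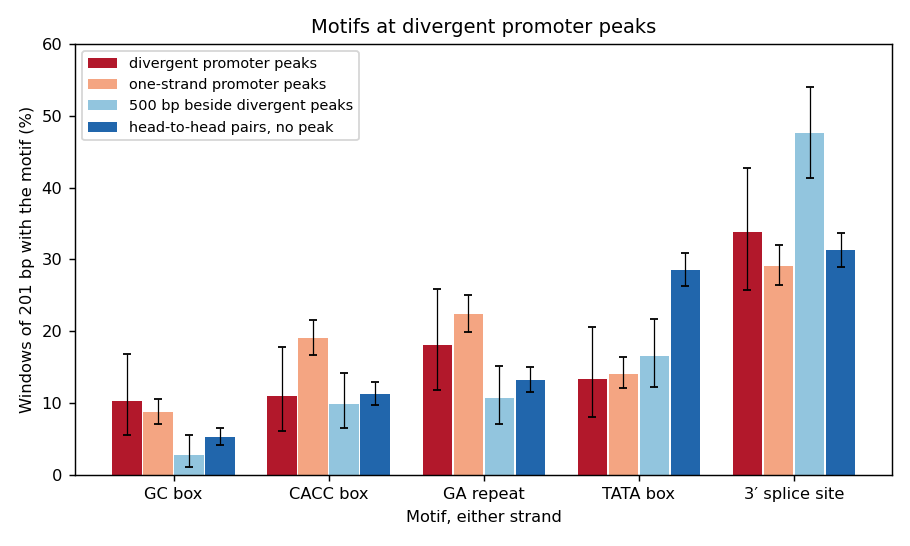
Percent of 201 bp windows with each motif on either strand, with exact 95% intervals, at divergent promoter peaks, one-strand promoter peaks, windows 500 bp beside the divergent summits and head-to-head pairs without a peak of 55 or more. The GC box is at 10.2% of divergent peaks and 2.76% of the windows beside them, and the TATA box at 13.4% of divergent peaks and 28.6% of pairs without a strong peak.

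By chromosome, 35 of the 127 divergent peaks were on I (27.6%, 20.01 to 36.2), 13 on II (10.2%, 5.56 to 16.9), 24 on III, 26 on IV, 22 on V and 7 on X (5.51%, 2.24 to 11.0). Chromosome I holds 19.2% of genome positions with divergent starts, chromosome II 19.0% and the X 4.57%. Relative to those positions the count was higher on I and lower on II, and the X share followed the positions. One-strand promoter peaks were on the X in 17.5%, where 14.8% of one-strand positions lie.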

How the data were processed

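SPTF-2 was profiled by chromatin immunoprecipitation and sequencing through its GFP tag, with fragments of 200 to 800 bp per the labels, in 2 replicates. The deposited files are peak lists on ce11. Per the deposited file descriptions, a replicate list was called from that library against a control, the pooled list from both libraries against that control, and the optimal list keeps pooled peaks by their irreproducible discovery rate. Not given in the sources used here: aligner, caller and thresholds. Each deposited signal value is a score in the caller's units and served to rank peaks within a list. The deposited summit offset in bp gave the summit. Read depth is unknown.

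Starts came from Ensembl release 115 and sequence from the RefSeq genome of the same assembly. Classes, overlaps and motif counts were computed with Python 3.11.15, NumPy 2.4.6 and SciPy 1.17.1 and checked on simulated data; shares carry exact Clopper-Pearson 95% intervals. A member is supported by a replicate when its summit lies in one of that list's 3768 strongest peaks, the number of pooled peaks at 55 or more. No test was run, since the signal value chose the peaks. Members and gene lists were chosen with earlier results of these data known, and list patterns were corrected after gene names were seen. The genes named are those of the 20 strongest members, of every list, of the GC-box peaks (up to 10 by signal), of the 100 strongest of both replicates, of peaks at the signal limit, of peaks in 1 replicate list, of which all are named, and of the extreme start distances. Alternatives changed the signal limit, the window, the starts, the merging of peaks and the replicates. A peak window and a member that the naming rule would give are not reported here.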

Additional observations from a re-analysis of the deposited data

How the results depend on the processing

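The number of divergent peaks depends on both limits of the rule: a signal limit of 75 gave 44 and one of 40 gave 303, and a window of 250 bp gave 34 and one of 1000 bp gave 297. The share in the optimal list was 43.2% at a limit of 75 and 6.27% at 40, because the optimal list is the top of the same ranking. With a window of 1000 bp the summit lay between head-to-head starts at 50.5%. Searching 50 bp instead of 100 bp to either side gave a GC box at 6.30% of divergent peaks, since fewer bases were searched. Counting any peak of the full replicate lists gave support from both replicates at 92.1%, against 89.2% of all pooled peaks with a signal of 55 or more. Under the other alternatives tried, the shares moved by less than their counting error and the count by less than 1.5 times. With the strongest 3768 peaks of 1 replicate in place of the pooled list, the count ranged from 114 to 128, the optimal share from 14.04% to 15.6%, the share between starts from 61.4% to 74.2% and the GC-box share from 11.4% to 13.3%. Support from both replicates has no value there. No paired analysis was possible because there is 1 group and no result comes from a test. Depth is unknown, so no peak could be weighed by its reads, and no list from an untagged strain bears on peaks that any immunoprecipitation would gather.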

Other observations

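Counting all 2080 hexamers at the divergent peaks, 4 stood highest above both one-strand promoter peaks and head-to-head pairs without a peak of 55 or more, called pairs without a strong peak here, and were chosen for that. TCGCAA was at 27 of 127 divergent peaks (21.3%), against 9.06% of one-strand promoter peaks and 9.52% of pairs without a strong peak, TTGCAA at 22.8% against 9.74% and 11.5%, AAATCG at 33.9% against 15.7% and 23.9%, and ACCGTA at 18.1% against 6.17% and 8.44%. In windows 500 bp to either side of the divergent summits the same hexamers were at 6.30%, 7.09%, 26.8% and 3.15%. At least 2 of the 4 stood together at 34 divergent peaks (26.8%), against 7.33% of one-strand promoter peaks and 9.05% of pairs without a strong peak. Since these words were picked from the same windows, the values describe and do not test them.

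The aka-1/ubc-6 window holds an inverted repeat with arms of 57 bp, the only one of 127 with arms of 20 bp or more, against 1 of 1037 one-strand promoter peaks and 10 of 1470 pairs without a strong peak. Of its 31-base words 21.1% occur once in the genome. Fewer than 90% of such words were unique at 10 of the 127 divergent peaks (7.87%), 4.24% of one-strand promoter peaks and 10.1% of pairs without a strong peak.

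Several divergent peaks were neighbours. On chromosome V, C01G10.10/C01G10.9, ahsa-1/C01G10.7 and C01G10.15/C01G10.6 followed each other at 2982 and 2079 bp, with replicate 1 ranks of 746, 312 and 8856. T10B5.3/knl-3 and T10B5.4/cct-7 were 3264 bp apart, and gmps-1/cap-2 and cyn-4/copz-1 were 3830 bp apart.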
